A study of Mus musculus with 4 samples.

Results

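Nppa and Nppb encode the precursors of atrial and B-type natriuretic peptide, and both genes were followed in 1148 cardiac cells of the Mesp1 lineage among 21448 cells kept from 4 single-cell RNA sequencing libraries. Cells of the mouse genotype Mesp1Cre;Rosa26-GFPflox/+ on the Swiss Webster background had been sorted as GFP positive and DAPI negative, so that every cell shared the Cre driver and the reporter. The E8.0 and E8.25 libraries came from the upper body, and the E9.5 and E10.5 libraries from the pharyngeal apparatus with the heart. Each stage was 1 library of pooled embryos, and Mesp1Cre marks early mesoderm, so cells that never expressed it were outside the sort. A cell was taken as cardiac where at least 5 of the 8 genes Tnnt2, Myl4, Myl7, Actc1, Tnni1, Ttn, Myh6 and Myh7, which encode sarcomere proteins, had 2 or more unique molecular identifiers (UMIs). That gave 342 of the 7118 cells kept from E8.0, 73 of 2884 from E8.25, 483 of 3921 from E9.5 and 250 of 7525 from E10.5. Neither Nppa nor Nppb took part in that choice, and both are among the 27998 genes of the count tables.

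Atrial natriuretic peptide and B-type natriuretic peptide are hormones of heart muscle that act through the membrane guanylyl cyclase Npr1, while Npr3 clears them from the circulation, Corin cleaves the atrial precursor and Furin the B-type precursor. In the embryo Nppa is a classical marker of the working myocardium of the forming chambers. It is known to be low in the atrioventricular canal and outflow tract, where the T-box repressors Tbx2 and Tbx3 are expressed.

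The genes are neighbours on mouse chromosome 4 in the same orientation, with Nppb (ENSMUSG00000029019) at 147985786 to 147987205 and Nppa (ENSMUSG00000041616) at 148000722 to 148002074 of GRCm38.p6, the patched release of mm10, and 13516 bases between them. The 250 bases before each start in the RefSeq promoter table are shown because they hold binding motifs of factors known for cardiac transcription, and because the genes were found together in single cells. Capitals mark matches on either strand to the T-box motif TCACACC, the NK-2 element TNAAGTG, the GATA motif GATAA, the M-CAT motif CATTCC and the TATA motif TATAAAA, and no marked matches overlapped. Both are plus-strand sequences of GRCm38.p6, and the start used for Nppb lies 114 bases inside the outermost RefSeq start of that gene.

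Nppa, chr4:148000472-148000721: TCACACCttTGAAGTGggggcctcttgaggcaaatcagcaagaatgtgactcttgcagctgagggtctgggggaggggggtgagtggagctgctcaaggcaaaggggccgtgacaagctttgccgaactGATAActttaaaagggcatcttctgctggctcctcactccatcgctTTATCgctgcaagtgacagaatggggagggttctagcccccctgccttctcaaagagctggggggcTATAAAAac

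Nppb, chr4:147985650-147985899: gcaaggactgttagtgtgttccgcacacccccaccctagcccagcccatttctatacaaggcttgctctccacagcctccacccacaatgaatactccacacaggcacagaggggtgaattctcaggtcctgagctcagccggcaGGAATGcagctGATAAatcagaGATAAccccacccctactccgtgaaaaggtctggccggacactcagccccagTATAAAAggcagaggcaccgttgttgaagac

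The Nppa window held 1 T-box match from 250 to 244 bases before the start, 1 NK-2 element from 241 to 235, GATA matches beginning 121 and 75 bases before the start and a TATA match from 9 to 3. The Nppb window held an M-CAT match on the minus strand that ends 100 bases before the start, GATA matches beginning 94 and 83 bases before it and a TATA match from 31 to 25. Over all 32851 windows of that length in the table, the share with a match was 3.33% for the T-box motif, 10.1% for the NK-2 element, 22.6% for GATA, 12.6% for M-CAT and 4.98% for TATA. Both windows lacked an exact match to CCWWWWWWGG (W for A or T), the CArG box of serum response factor, which 1.47% of windows held. Sequences close to that pattern were not searched, so a weaker CArG-like element could have been missed. These matches describe letters, and no factor binding was measured in these libraries.

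Nppa and Nppb were higher in cardiac cells at each stage up to E9.5, where both were highest, and lower again at E10.5. Levels are given as CPM, the UMIs of a gene per 1000000 UMIs of the summed cells. In cardiac cells Nppa had 35 UMIs at E8.0, or 5.22 CPM (95% exact Poisson interval 3.64 to 7.26), and 181 UMIs at E8.25, or 72.1 CPM (61.9 to 83.4). It had 3856 UMIs at E9.5, or 434 CPM (420.3 to 448), and 1343 UMIs at E10.5, or 319 CPM (303 to 337). Nppb had 29 UMIs at E8.0, or 4.32 CPM (2.90 to 6.21), and 66 at E8.25, or 26.3 CPM (20.3 to 33.4). It had 1196 UMIs at E9.5, or 135 CPM (127 to 142), and 256 at E10.5, or 60.9 CPM (53.7 to 68.8). The order of stages was the same for both genes, with E9.5 first, then E10.5, E8.25 and E8.0, and no intervals of neighbouring stages overlapped.

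On the log2 scale Nppa was higher at E9.5 than at E8.0 by 6.38 (5.90 to 6.90) and Nppb by 4.96 (4.43 to 5.54). From E9.5 to E10.5 the log2 ratio was -0.44 for Nppa (-0.53 to -0.35) and -1.14 for Nppb (-1.34 to -0.95). These intervals, like all others for summed cells or shares of cells, cover counting error only. With 1 library per stage no test between stages was possible, and the dissected tissue changed between E8.25 and E9.5 together with the stage.

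**Figure D1:**
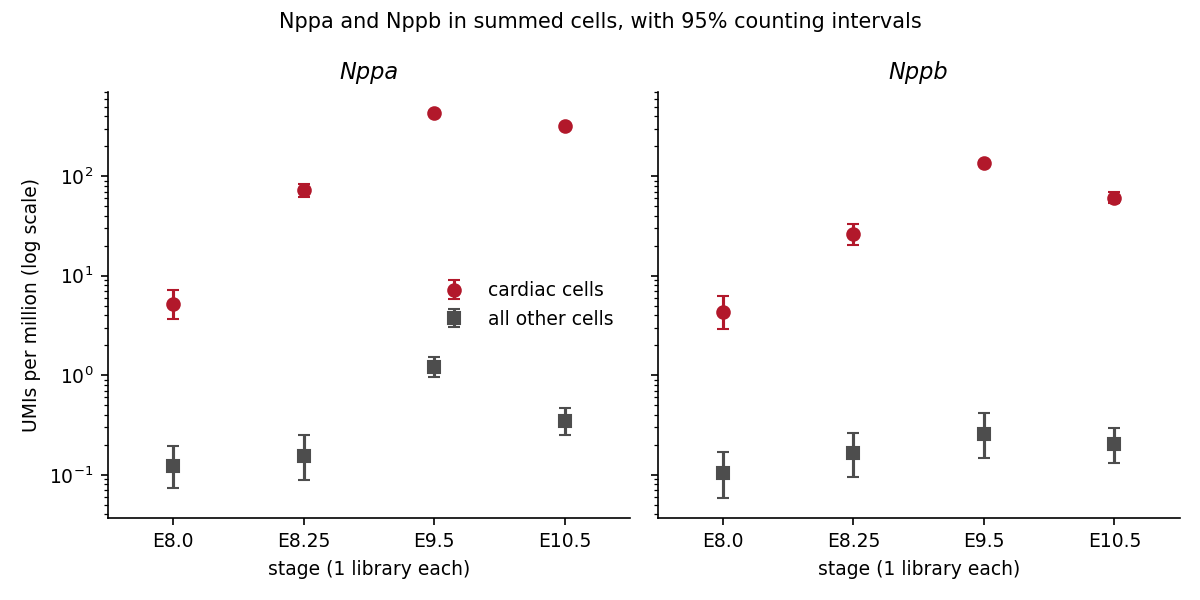
Level of Nppa (left) and Nppb (right) in CPM, on a log axis, in cardiac cells (circles) and all other kept cells (squares) of each stage, with 95% exact Poisson intervals. In cardiac cells both genes are highest at E9.5 (434 and 135 CPM), and in other cells neither gene exceeds 1.22 CPM.

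A small number of cells carried most of these UMIs. At E8.0 Nppa was at 0 UMIs in 332 of 342 cardiac cells and its highest cell had 11. At E8.25 it was at 0 in 60 of 73 cells, and a single cell held 140 of the 181 UMIs. Without that cell, the E8.25 level was 16.6 CPM, and the log2 ratio to E8.0, with the highest E8.0 cell left out as well, was 2.21 instead of 3.79. The same cell had 26 of the 66 Nppb UMIs, and without it Nppb at E8.25 was 16.2 CPM. That cell held all 8 sarcomere genes, with 40 UMIs of Myl2, the ventricular regulatory myosin light chain, and 11 of Smpx, a small muscle protein.

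At E9.5 Nppa was at 0 in 322 of 483 cells, the 90th percentile was 22.8 UMIs and the highest cell had 270. The 16 highest cells, 3.31% of all cardiac cells, held as many Nppa UMIs as all others together or more. At E10.5 Nppa was at 0 in 208 of 250 cells, the highest cell had 307 UMIs or 22.9% of the total, and 5 cells held as many as the others or more. From E8.0 to E10.5, Nppb was at 0 in 326, 60, 369 and 227 cardiac cells, and its highest cells had 7, 26, 92 and 76 UMIs. Even without the highest cell of each library, Nppa stood at 404 CPM at E9.5 and 248 at E10.5.

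To compare shares of cells at equal depth, each cell was thinned to 5000 UMIs, which left out 1 cardiac cell at E9.5 and none at the other stages. At least 2 thinned Nppa UMIs were found in 3 of 342 E8.0 cells (0.877%, exact Clopper-Pearson interval 0.181 to 2.54), in 1 of 73 E8.25 cells (1.37%, 0.0347 to 7.40), in 106 of 482 E9.5 cells (22.0%, 18.4 to 26.0) and in 24 of 250 E10.5 cells (9.60%, 6.25 to 13.9). Before thinning these shares were 1.75%, 11.0%, 27.1% and 14.0%. For Nppb the thinned shares were 0.292%, 2.74%, 9.75% and 3.60%. The share of Nppa cells was thus lower at E10.5 than at E9.5, beyond both counting intervals.

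At each stage both genes were highest in cells with all 8 sarcomere genes. At E9.5 Nppa stood at 4.53 CPM in the 88 cells with 5 of the 8 genes, at 5.81 in the 74 cells with 6, at 92.0 in the 83 cells with 7 and at 832 in the 238 cells with all 8. At E10.5 the levels were 0 in 45 cells, 20.8 in 35, 124 in 68 and 608 in 102. Nppb stood at 263 CPM at E9.5 and 108 at E10.5 in cells with all 8 genes, and at 14.9 and 41.5 in cells with 7. At E10.5 a single cell held 106 of the 120 Nppa UMIs of the cells with 7 genes, and a single cell 39 of their 40 Nppb UMIs. The early stages showed no such steps for Nppa, with 0, 2.47, 0 and 10.8 CPM for 5 to 8 genes at E8.0 and 25.5, 0, 0 and 255 CPM at E8.25. The cardiac cells thus differed in how complete their sarcomere gene set was, and most UMIs of both genes came from the cells with the full set.

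Outside the cardiac cells both genes were near background. In all other cells Nppa stood at 0.124, 0.155, 1.22 and 0.347 CPM from E8.0 to E10.5, and Nppb at 0.104, 0.164, 0.259 and 0.202. Cardiac cells were higher than other cells by 8.48 on the log2 scale for Nppa at E9.5 (8.15 to 8.83) and by 9.84 at E10.5 (9.41 to 10.32), and for Nppb by 9.02 (8.31 to 9.83) and 8.24 (7.64 to 8.89). Since the cells were separated by sarcomere genes of the same counts, that contrast is a description.

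No cell outside the cardiac group had 2 or more thinned Nppa UMIs at any stage, and 1 of 7275 had 2 or more thinned Nppb UMIs at E10.5. At least 1 thinned Nppa UMI occurred in 0.703% of other cells of E9.5 and 0.192% of E10.5, against 27.0% and 13.2% of cardiac cells, at median depths of 17246 and 15218 against 17359 and 14922 UMIs per cell. Erythroid cells, which should lack the gene, had one in 1 of 1020 cells (0.0980%) at E10.5, at a median of 28219.5 UMIs. In endothelial cells the share was 0.535% at E9.5 (1 of 187 cells) and 0.585% at E10.5 (2 of 342). In epicardial cells it was 1.77% (2 of 113) and 0.722% (2 of 277), and in mesenchyme 0.796% (10 of 1256) and 0.290% (7 of 2412). The counts in endothelial and epicardial cells are too few to rank these groups. Per 1000 UMIs of the 8 sarcomere genes Nppa had 14.6 UMIs in cardiac and 2.99 in other cells at E9.5.

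Nppa and Nppb tended to be found in the same cardiac cells. At E9.5, 30 cells had 2 or more thinned UMIs of both genes, 76 of Nppa alone, 17 of Nppb alone and 359 of neither. Nppa was present in 63.8% of the Nppb cells (48.5 to 77.3) and in 17.5% of the cells without Nppb. At E10.5 the counts were 6 cells with both, 18 with Nppa alone, 3 with Nppb alone and 223 with neither, so that Nppa was present in 66.7% of the Nppb cells (29.9 to 92.5) against 7.47%. In the other direction Nppb was present in 28.3% of Nppa cells at E9.5 and in 25.0% at E10.5. Pearson's r of the log2 values, log2(1 + thinned UMIs), was -0.01 over 342 cells of E8.0, 0.57 over 73 of E8.25, 0.50 over 482 of E9.5 and 0.52 over 250 of E10.5. Cells of 1 library share their preparation and their range of depth, and at E8.25 the r rests largely on few cells, with a Spearman rho of 0.21.

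**Figure D2:**
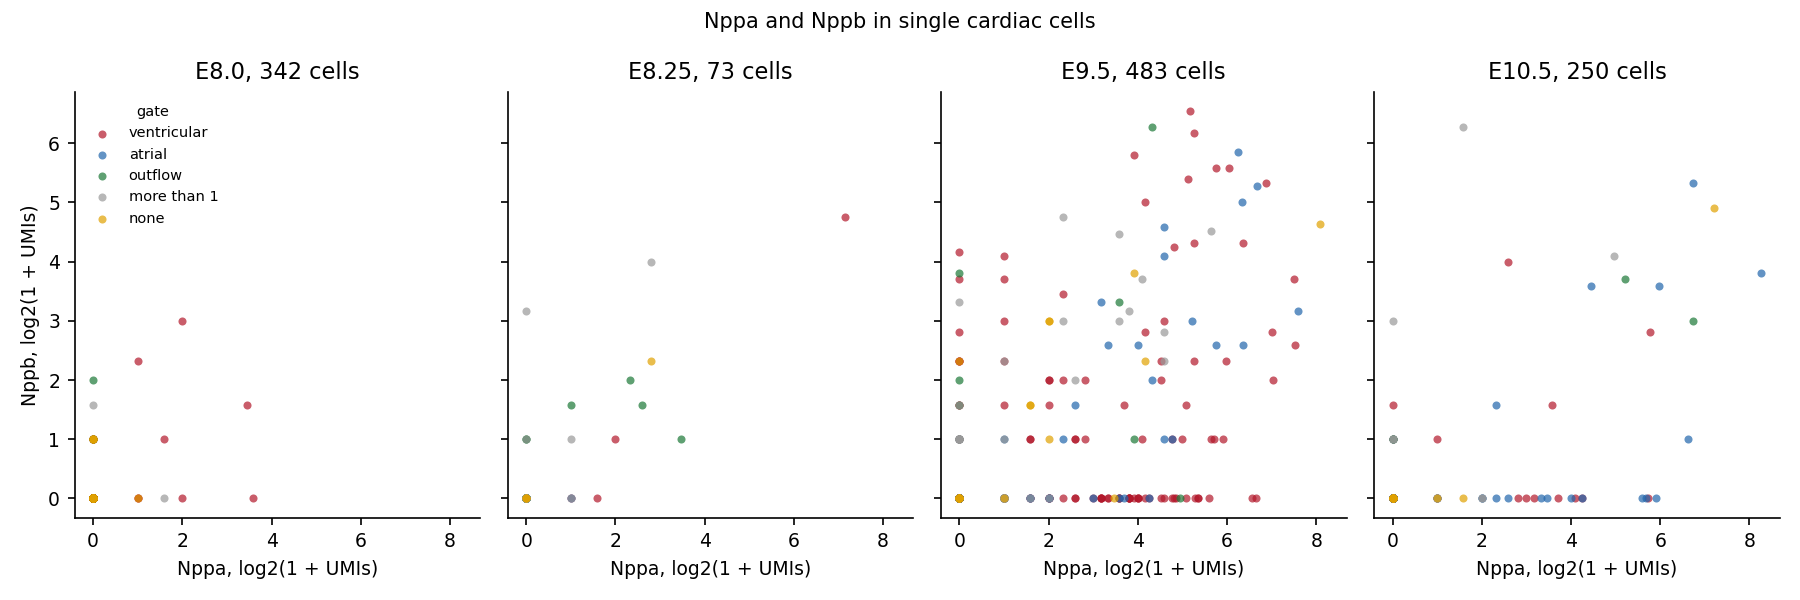
Nppa (horizontal) against Nppb (vertical) in every cardiac cell of each stage, both as log2(1 + UMIs) without thinning and coloured by marker gate, with many cells overlying at 0. The highest cells of both genes at E9.5 and E10.5 reach 270 and 307 Nppa UMIs and 92 and 76 Nppb UMIs, and 1 ventricular cell stands apart at E8.25 with 140 and 26.

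The cells were next separated by markers of heart regions that exclude both genes. The ventricular gate required 2 or more Myl2 UMIs with at most 1 UMI of Nr2f1, Nr2f2 and Vsnl1 together, which are atrial and inflow genes, and the atrial gate required the reverse. The outflow gate required 3 or more UMIs of Rspo3, Sema3c, Bmp4 and Isl1 together. Cells that met more than 1 gate, 37.1% of E9.5 and 40.0% of E10.5 cardiac cells, were set apart. The ventricular and atrial gates exclude each other, so every cell set apart met the outflow gate and 1 of these. Outflow cells below are thus those that met the outflow gate alone, and the ventricular and atrial cells include none that met it. Nppa in the set-apart group stood at 49.9 CPM for E9.5 (179 cells) and 23.9 CPM for E10.5 (100 cells).

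At E8.0 the ventricular gate of 89 cells held 32 of the 35 Nppa UMIs (18.0 CPM), and the 17 atrial and 87 outflow cells held none, which allows up to 9.46 and 1.82 CPM. At E8.25 the 7 ventricular cells stood at 683 CPM, but at 33.8 without the highest cell, and the 8 atrial cells had 1 UMI. At E9.5 Nppa stood at 1160.3 CPM in 114 ventricular cells (1115 to 1207), 456 in 109 atrial cells (426 to 488) and 65.8 in 62 outflow cells (51.9 to 82.4). At E10.5 it stood at 407 in 23 ventricular cells (351 to 469), 794 in 62 atrial cells (741 to 850.3) and 179 in 53 outflow cells (151 to 211). Without the highest cell of each gate these E10.5 levels were 314, 514 and 49.0 CPM. Of the Nppa UMIs of E9.5, ventricular cells held 63.4% and atrial cells 21.7%, and of those of E10.5, 14.2% and 61.2%.

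The order of both gates by summed level thus turned between E9.5 and E10.5. The log2 ratio of ventricular to atrial cells was 1.35 for Nppa at E9.5 (1.23 to 1.46) and -0.96 at E10.5 (-1.20 to -0.74). For Nppb it was 1.40 (1.18 to 1.63) and -0.39 (-1.08 to 0.26), so that at E10.5 its sign is not set by the counts. Nppb stood at 316 CPM in ventricular and 119.8 in atrial cells at E9.5, and at 57.5 and 75.4 at E10.5. The order by share of cells with 2 or more thinned Nppa UMIs did not turn. That share was 61.1% of ventricular and 18.3% of atrial cells at E9.5. At E10.5 it was 30.4% (13.2 to 52.9) and 19.4% (10.4 to 31.4), with intervals that overlapped. For Nppb the shares were 23.9% and 7.34% at E9.5, and 4.35% and 6.45% at E10.5. The gates differed in how many cells held all 8 sarcomere genes, with 107 of 114 ventricular and 32 of 109 atrial cells at E9.5 and 19 of 23 and 30 of 62 at E10.5. Among those cells alone the E9.5 ratio was -0.22 for Nppa (-0.34 to -0.10). The E10.5 ratio was -1.37 (-1.61 to -1.14), so that the E9.5 and E10.5 ratios had the same sign there. A single atrial cell held 192 of the 768 Nppa UMIs of the 32 atrial cells at E9.5, and a single cell 307 of 704 at E10.5. The E9.5 levels in these cells were 1168 CPM in the ventricular and 1362 in the atrial gate, and the highest atrial cell had 22156 UMIs in all. Ratios without these single cells were not computed, so the sign at E9.5 may rest on a single cell. For Nppb the ratios among cells with all 8 sarcomere genes were -0.21 (-0.44 to 0.02) and -0.01 (-0.79 to 0.74).

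Over the 3 libraries with 10 or more cells in both gates (E8.0, E9.5 and E10.5), edgeR's quasi-likelihood test with library as a block gave a log2 difference of 0.54 ± 0.523 (SE) for Nppa, higher in 2 of 3 libraries, with an adjusted p of 0.788 (Benjamini-Hochberg). For Nppb it was 0.91 ± 0.425, with an adjusted p of 0.483. Neither passed, beside 0.398% of 8284 genes called in either direction. Without the E10.5 library the Nppa difference was 1.70 with an adjusted p of 1.35e-05, and without the E9.5 library it was -0.15 with an adjusted p of 1.000. In cells with all 8 sarcomere genes of the E9.5 and E10.5 libraries it was -0.72 with an adjusted p of 4.44e-06.

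**Figure D3:**
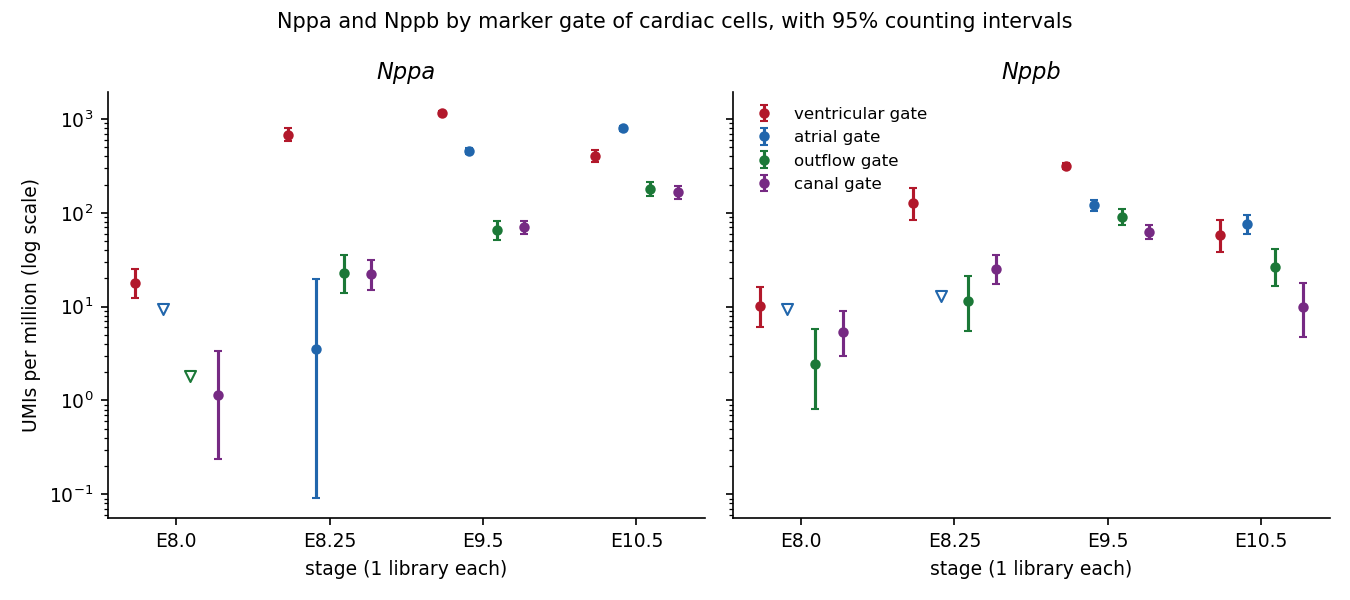
Level of Nppa (left) and Nppb (right) in CPM, on a log axis, in 4 marker gates of cardiac cells by stage, with 95% exact Poisson intervals, where an open triangle is the upper limit of a gate without UMIs. Nppa is higher in ventricular than in atrial cells at E9.5 (1160.3 against 456) and lower at E10.5 (407 against 794).

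Nppa was lower in cells with the canal genes Tbx2, Tbx3 and Bmp2. Bmp2 is the signal that induces Tbx2 in the atrioventricular canal. Cells with 2 or more UMIs of these genes together, the canal gate, numbered 119, 38, 111 and 55 from E8.0 to E10.5. They made up 34.8%, 52.1%, 23.0% and 22.0% of cardiac cells and could also meet the outflow or another gate. Their position in the heart was not measured, so they are not taken as cells of the canal. Their Nppa level in that order was 1.15 CPM against 7.79 in the other cardiac cells, 22.3 against 129.6, 70.6 against 556 and 166 against 369, lower in 4 of 4 libraries. Without the highest cell of each side the E8.25 levels were 15.3 against 9.74, so that the direction in that library turned, and the E10.5 levels were 66.2 against 275. The fitted log2 difference was -2.23 ± 0.261 (SE) with an adjusted p of 0.00136 in edgeR's test, beside 0.341% of 9688 genes called lower and 0.186% called higher. Without the library block the difference was -2.13 with an adjusted p of 1.000.

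Without the highest cells of each side the Nppa difference was -2.79 with an adjusted p of 0.00363, and leaving out each library in turn it ran from -2.90 to -1.67 and passed each time. With the gate set on thinned counts it was -4.09 with an adjusted p of 2.48e-07. The cells of the canal gate also had less of the sarcomere genes, with 7 of the 8 called lower. The median log2 difference over the 8 was -0.43, against -0.01 over all genes. Of 9 outflow genes Rspo3 was called higher and 0 were called lower. Among cells with all 8 sarcomere genes the Nppa difference was -1.72 with an adjusted p of 0.0457. From E8.0 to E10.5 Nppb stood at 5.39 against 3.65, 25.3 against 27.5, 63.0 against 159 and 9.81 against 77.2 CPM, lower in 3 of 4 libraries. Its fitted difference of -1.29 ± 0.296 did not pass in edgeR's test (adjusted p = 0.110), and it passed without the E8.25 library (-1.52, adjusted p = 0.0263).

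To find which genes go with Nppa, cardiac cells with 2 or more thinned Nppa UMIs (Nppa-high cells) were set against the other cardiac cells within a library, and the summed raw counts were fitted with library as a block. The E9.5 library entered with 106 against 376 cells and E10.5 with 24 against 226, while E8.0 and E8.25 had 3 and 1 such cells and stayed out. Nppa-high cells were deeper, with median UMIs of 18937 against 16704 at E9.5 and 22510.5 against 14708 at E10.5. The summed sarcomere genes of the rule stood at 47892 against 24279.5 CPM and at 45451 against 28146. The summed haemoglobin genes Hba-x, Hba-a1, Hbb-y and Hbb-bh1 stood at 10.3 against 7.89 CPM at E9.5 and 4904 against 4985 at E10.5. The summed 6 endothelial markers (Pecam1, Cdh5, Kdr, Esam, Tek and Egfl7) were lower, at 0.579 against 0.961 per 10000 UMIs at E9.5 and 0.372 against 1.05 at E10.5, with 1 and 2 of the 6 at 0 in the Nppa-high cells. Their median mitochondrial share was higher, at 3.34% against 2.23% at E9.5 and 4.11% against 3.19% at E10.5. The part of these values in the differences was not tested, and the comparison among cells with all 8 sarcomere genes is given with them.

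Nppb stood at 479 CPM in Nppa-high cells and 32.0 in the other cells at E9.5, and at 257 against 30.5 at E10.5. The fitted log2 difference was 3.73 ± 0.164 (SE), and its adjusted p in edgeR's test was 4.54e-27 and at most 0.0182 under the alternatives tried. The test had 1 residual degree of freedom and borrowed 57.4 from the spread over all genes, so that small p-values rest on that pooled spread. Among cells with all 8 sarcomere genes the difference was 2.20, and over all 4 libraries, split on raw counts, it was 4.89.

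Chamber genes were higher with Nppa. Of 12 working chamber genes tested, 9 were called higher and 0 lower (edgeR, adjusted p below 0.05), with a median log2 difference of 1.61 against -0.01 over all genes, beside 7.60% of 10327 genes called higher and 6.28% called lower. Smpx stood at 740.1 against 158 CPM at E9.5 and 966 against 155 at E10.5, a log2 difference of 2.60 ± 0.131. Cited1, a transcriptional coactivator of chamber muscle, stood at 212 against 37.3 and 227 against 53.3 (2.49 ± 0.157). Gja5, the gap junction protein connexin 40, differed by 1.68 ± 0.292 and Stard10, a lipid transfer protein, by 1.52 ± 0.201. Hey1, Irx3 and Hand1 did not pass, with values of 0.53, 0.17 and -0.56. With no scaling beyond library size the median over all genes moved to -0.18 from -0.01, and 293 genes were called higher and 535 lower, in place of 785 and 649.

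Of 5 ventricular genes 4 were called higher, among them Myl2 (1.93 ± 0.126), Myl3, the ventricular essential myosin light chain (1.50 ± 0.113), and the transcription factors Irx4 (2.07 ± 0.273) and Hey2 (1.87 ± 0.313). Of 5 trabecular genes Bmp10, Gja5 and Cited1 were called higher and Adm, which encodes adrenomedullin, was called lower (-1.34 ± 0.217). In the atrial and inflow list of 8 genes the potassium channel gene Kcna5 was called higher (0.89 ± 0.260), and Nr2f2 (-0.81 ± 0.178) and Vsnl1 (-0.85 ± 0.154) were called lower. The fit gave 1 value per gene over both libraries, and a difference between them was not tested. At E9.5, 69 of the 106 Nppa-high cells met the ventricular and 20 the atrial gate defined above. At E10.5, 7 and 12 of 24 did. At E9.5 and E10.5 Pearson's r with Nppa was 0.45 and 0.15 for Myl2 and 0.48 and 0.33 for Myl3. It was 0.22 and 0.02 for Hey2 and 0.19 and 0.20 for Irx4. For Nr2f1 it was -0.19 and 0.19, for Nr2f2 -0.20 and -0.09 and for Vsnl1 -0.20 and -0.08.

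Genes of the outflow tract and of primary myocardium were lower with Nppa. Isl1, a transcription factor of heart progenitors, stood at 6.87 against 78.9 CPM at E9.5 and 24.8 against 123 at E10.5, a log2 difference of -2.82 ± 0.252. The signal Bmp4 stood at 29.0 against 197 and 26.6 against 267 (-2.77 ± 0.185). Rspo3 (8.83 against 51.7 and 24.8 against 76.6 CPM) and Sema3c (14.2 against 45.9 and 1.77 against 70.6 CPM) were also called lower, while Acta2, smooth muscle actin, was called higher, so that 4 of 8 outflow genes were lower and 1 higher. Of 7 primary myocardium genes 4 were called lower, namely Tbx18, Shox2, Bmp2 and Msx2, with log2 differences from -2.09 to -1.29. The share of all genes was 6.28% called lower and 7.60% called higher. Among cells with all 8 sarcomere genes the Tbx18 difference turned to 1.04 ± 0.341 and did not pass. The canal repressors Tbx2 and Tbx3 did not pass, at -0.29 ± 0.492 and -0.31 ± 0.352.

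**Figure D4:**
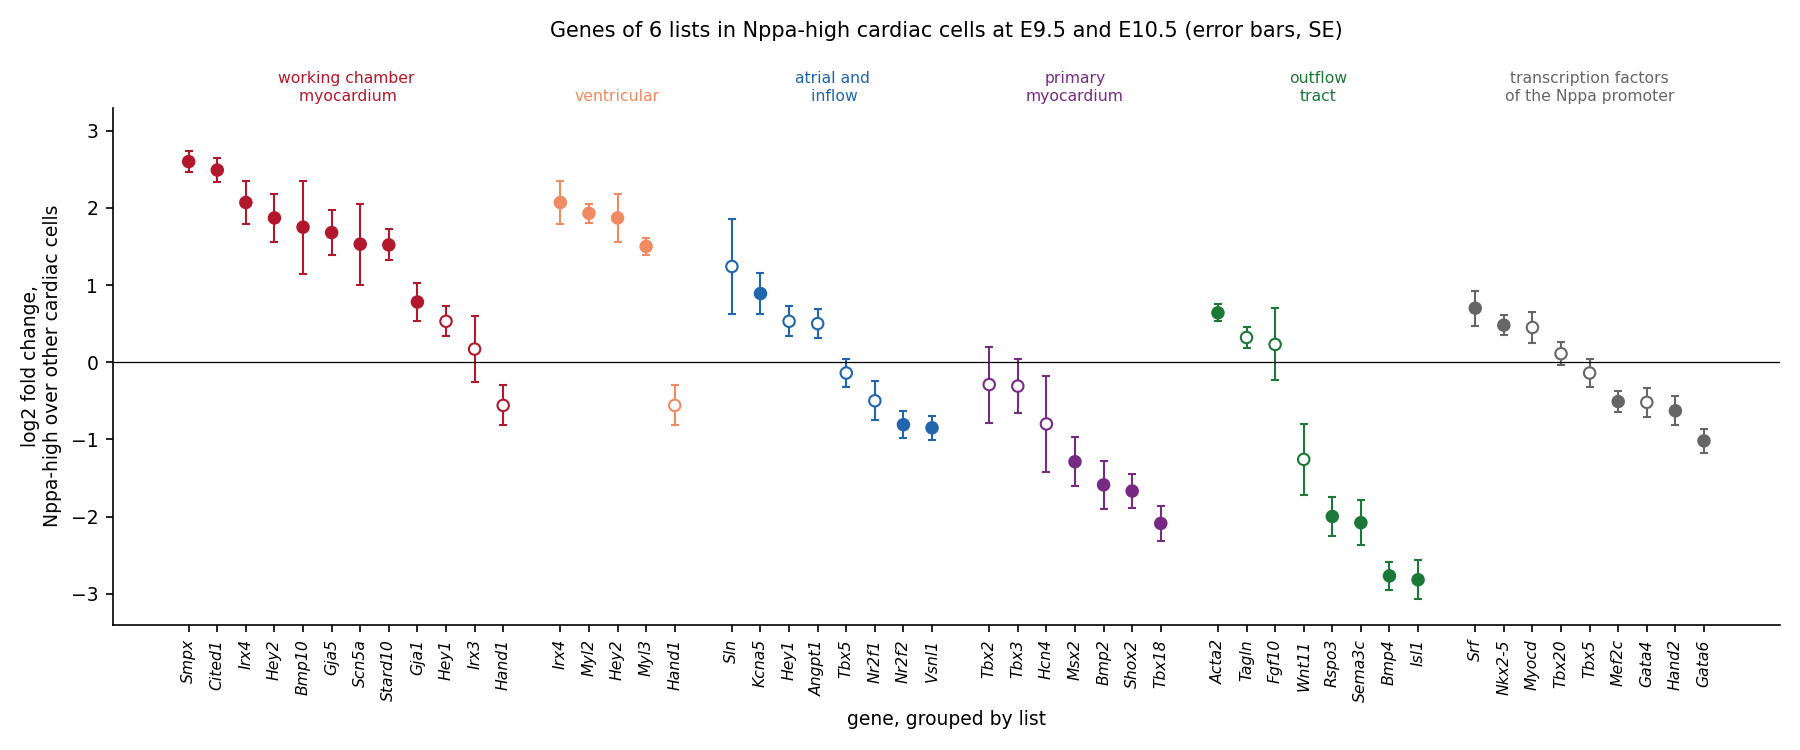
Log2 fold change between Nppa-high and other cardiac cells (vertical axis, error bars SE) for the tested genes of 6 lists at E9.5 and E10.5, with filled points past an adjusted p of 0.05 in edgeR's test and genes of 2 lists drawn in both. Working chamber and ventricular genes lie mostly above 0, led by Smpx at 2.60, and Isl1 at -2.82 lies lowest.

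Among the 9 transcription factors known at the Nppa promoter the log2 differences lay between -1.02 and 0.70. Nkx2-5 (0.48 ± 0.133) and Srf (0.70 ± 0.227) were called higher, Gata6 (-1.02 ± 0.156), Mef2c (-0.51 ± 0.136) and Hand2 (-0.63 ± 0.189) lower, and Tbx5, Gata4, Tbx20 and Myocd did not pass. Of 13 alternatives Srf passed in 5, Nkx2-5 in 6, Hand2 in 7, Mef2c in 10 and Gata6 in 11, and Nkx2-5 turned to -0.24 among cells with all 8 sarcomere genes. All 8 sarcomere genes of the cell rule were called higher, with a median of 1.06, and so were 8 of the 9 other sarcomere genes, led by Tnni3, cardiac troponin I, at 1.59 ± 0.116. Of 6 calcium handling genes Ryr2 (1.30 ± 0.162), the calcium pump gene Atp2a2 (1.17 ± 0.125) and Pln (1.15 ± 0.183) were called higher. Pln passed in 8 of 13 alternatives, and among cells with all 8 sarcomere genes it differed by 0.16 ± 0.124 and did not pass. All these counts stand beside 7.60% of all genes called higher and 6.28% called lower. Of 6 cell cycle genes 0 were called, and their median was 0.01.

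Compared among cells with all 8 sarcomere genes, a choice made after seeing the data, fewer sarcomere genes than regional genes were called. There 1 of the 8 rule genes and 1 of the 9 other sarcomere genes were called higher, with medians of 0.14 and 0.11, beside 1.27% of 8865 genes called higher and 1.91% called lower. Of the working chamber genes 7 of 12 were called higher, with a median of 0.92, 5 of 8 outflow genes were called lower, with a median of -2.01, and so were 3 of 6 primary myocardium genes. Smpx differed by 1.43 ± 0.114, Cited1 by 1.57 ± 0.141, Bmp4 by -2.38 ± 0.181 and Myl2 by 0.56 ± 0.115. The ventricular genes Irx4 (0.59 ± 0.237) and Myl3 (0.22 ± 0.116) did not pass there. Of 69 named or listed genes called in the split, Smpx, Cited1, Myl2 and Bmp4 passed under every alternative.

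Among all genes that went the same way in both libraries, those called higher with the largest log2 differences, beside Nppb, were Tnnc2, Abcc9, Ntn1, Spink4, Gm15543, Clvs1, Clic5, Sgca and Mb. Tnnc2, the fast skeletal troponin C, stood at 12.8 against 0.292 CPM at E9.5 and at 3.55 against 0 at E10.5. Abcc9, a subunit of ATP-sensitive potassium channels, stood at 22.1 against 4.38 and 51.4 against 5.22, a log2 difference of 2.91 ± 0.336. Mb, the oxygen-binding protein myoglobin, stood at 9.32 against 1.75 and 37.2 against 6.59 (2.62 ± 0.425). All 9 are low genes, with at most 51.4 CPM.

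The called genes with the largest negative differences were Lrrn4, Plcxd3, Colec11, Foxc1, Fgf5, St8sia2, Kcnip1, Slc38a5, Klk14 and Rab32, each with 0 UMIs in the Nppa-high cells of both libraries. Against a floor of 3 UMIs over that group they were at least 3.64-fold lower (Klk14) to at least 10.7-fold lower (Lrrn4). Lrrn4 stood at 6.87 and 22.5 CPM in the other cardiac cells and the forkhead factor Foxc1 at 5.55 and 8.79.

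Likeness over single cells was measured by correlation. Over 3965 genes detected in at least 10% of cardiac cells of every library, Smpx was most like Nppa, with a mean Pearson's r of 0.44 over the 4 libraries (0.24, 0.42, 0.57 and 0.53 from E8.0 to E10.5). It was followed by Myl3 (0.30), Acta1, skeletal actin (0.30), Myl2 (0.30), Chchd10 (0.29), the small heat shock protein genes Cryab and Hspb1 (both 0.28), Tnni3 (0.28), Cited1 (0.26) and the rule gene Actc1 (0.25). These points share library and depth, and the values are given without a test. The early values rest on few cells, since 6 of 342 cells at E8.0 and 6 of 73 at E8.25 had a thinned Nppa UMI. Over the E9.5 and E10.5 libraries alone, a choice made after seeing the data, Smpx was again first, with a mean r of 0.55.

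The genes most like Nppb overlapped in part. They were Synpo2l (mean r 0.30), Acta1 (0.27), Ankrd1 (0.27), Myl3 (0.26), Myh7 (0.24), Cryab (0.24), Fbxl22 (0.22), Ttn (0.21), Actc1 (0.21) and Smpx (0.21). Ankrd1, a stress-responsive titin-binding protein, had an r with Nppb of 0.46 and 0.22 at the late stages, where Smpx had 0.36 and 0.29. Synpo2l, an actin-binding protein of the Z-disc, had its highest r at E8.25, 0.62, and 0.15 to 0.28 at the other stages. A thinned Nppb UMI was found in 2 cells at E8.0 and 3 at E8.25, so that the order rests in part on these few cells. Over the E9.5 and E10.5 libraries alone Ankrd1 was first (mean r 0.34) and Smpx second (0.32), and Synpo2l was not among the first 10.

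For Nppb, a split at 2 or more thinned UMIs left 1 library, since E10.5 had 9 such cells, so cells with 1 or more thinned UMIs were set against cells with 0 instead, with 80 against 402 cells at E9.5 and 12 against 238 at E10.5. Nppa stood at 1459.5 CPM in the Nppb cells and 211 in the others at E9.5, and at 2637 against 134 at E10.5, a log2 difference of 3.67 ± 0.262 (edgeR, adjusted p = 3.73e-06). Of the 12 working chamber genes 5 were called higher (Smpx, Gja5, Cited1, Stard10 and Irx4) and 0 lower, with a median of 1.09, beside 3.62% of 10077 genes called higher and 2.28% called lower. Isl1, Bmp4, Sema3c and Tdgf1 of the outflow list and Tbx18 of primary myocardium were called lower. The Nppb cells also held more of the sarcomere genes, all 8 being called higher with a median of 1.01.

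Beside Nppa, the called genes with the largest positive differences in Nppb cells were Ctgf, Prkag3, 1110002E22Rik and Atf3. Ctgf, a secreted matricellular protein, stood at 63.6 against 6.31 CPM at E9.5 and 48.2 against 8.73 at E10.5 (3.20 ± 0.283, edgeR adjusted p = 2.29e-05), and Atf3, a stress-induced transcription factor, at 15.1 against 2.47 and 19.3 against 4.37 (2.59 ± 0.489). Ctgf passed under all 6 alternatives of that split, and Atf3 under 4 of the 5 in which it was tested. Neither gene was among those named for Nppa, and whether the splits differ was not tested, since they share cells. The largest negative differences were those of Rprm, Pdlim2, Hoxa5, Ehd2 and Lor, with 0 UMIs in the Nppb cells and at least 4.58-fold (Lor) to at least 7.87-fold (Rprm) lower against the same floor.

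Among the other genes of the natriuretic peptide pathway the receptors Npr1 and Npr3 were higher in endothelial groups than in cardiac cells at the late stages, and Mme and Prkg1 were higher in cardiac than in endothelial cells at each stage. Npr3, the clearance receptor, stood at 9.56 CPM in E9.5 and 5.71 in E10.5 cardiac cells, against 129 and 109.7 in endocardial cells (endothelial cells with Nfatc1) and 106 and 90.1 in other endothelial cells. Endothelial cells of E8.0 and E8.25 had lower levels of Npr3, at 11.5 and 19.4 CPM. Npr1, the guanylyl cyclase receptor, stood at 3.71 and 3.57 in cardiac, 28.4 and 31.2 in endocardial and 34.3 and 31.9 in endothelial cells at E9.5 and E10.5. Pde2a, a phosphodiesterase that breaks down cyclic GMP, followed the endothelial groups with 27.7 and 32.5 CPM against 0.338 and 0.714 in cardiac cells. None of the pathway genes was used to define the endothelial group.

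Corin, the protease that activates the atrial precursor, stood at 0.746, 1.19, 10.6 and 8.56 CPM in cardiac cells from E8.0 to E10.5. Its level in endocardial cells was 10.3 at E9.5 and 18.0 at E10.5. Furin, the protease of the B-type precursor, stood at 18.7 and 39.2 in cardiac and 43.9 and 70.0 in endocardial cells. Prkg1, the kinase activated by cyclic GMP, was higher in cardiac cells than in endothelial cells at each stage, at 20.0, 28.3, 25.5 and 9.99 against 0.562, 2.62, 1.20 and 1.87. Mme, the peptidase neprilysin, stood at 34.3, 35.8, 13.8 and 25.4 in cardiac cells from E8.0 to E10.5, against 2.37, 7.40, 6.91 and 4.36 in endothelial cells and 7.84, 6.98, 9.43 and 13.6 in mesenchyme. The third peptide gene, Nppc, reached at most 0.238 CPM in cardiac cells. Within the Nppa split 8 of the 11 pathway genes were tested, of which Prkg1 was called higher (1.15 ± 0.268) and Furin lower (-1.06 ± 0.295), beside the 7.60% and 6.28% of all genes given above. Prkg1 passed in 7 and Furin in 8 of 13 alternatives.

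**Figure D5:**
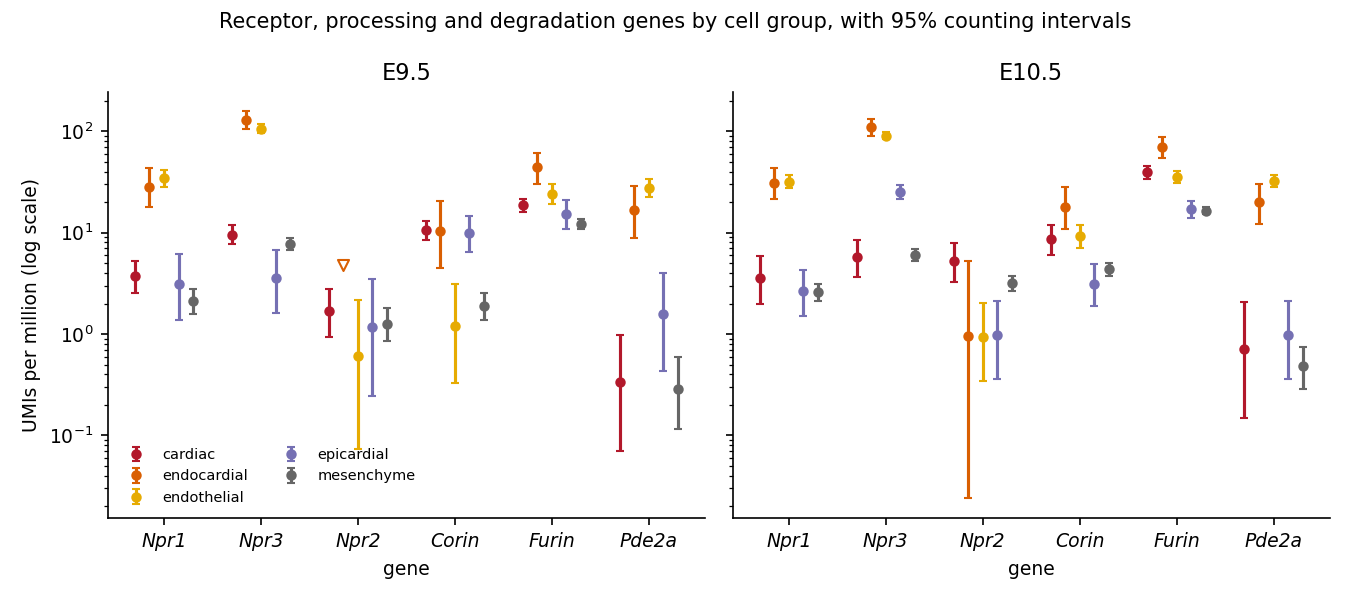
Level of 6 genes of natriuretic peptide signalling in CPM, on a log axis, in 5 cell groups at E9.5 (left) and E10.5 (right), with 95% exact Poisson intervals, where an open triangle is the upper limit of a group without UMIs. Npr3, Npr1 and Pde2a are higher in endocardial and endothelial cells than in cardiac cells, with Npr3 at 129 against 9.56 CPM at E9.5.

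Within 100000 bases on either side of the pair lie 10 further RefSeq genes, of which 8 are in the count tables, and their levels in cardiac and other cells were much closer than those of Nppa and Nppb. Clcn6, the nearest to Nppa, stood at 4.05 CPM in cardiac and 3.22 in other cells at E9.5, and Plod1 at 9.68 and 9.74. Mfn2, a mitochondrial fusion protein, stood at 12.7 against 5.66 and was called higher in Nppa-high cells (1.04 ± 0.293), as was Agtrap (0.96 ± 0.337). Draxin, a secreted axon guidance protein, stood at 0.900 in cardiac and 8.26 in other cells. Gm13201 had no UMIs at E9.5 and E10.5.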

How the data were processed

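Per the labels, cells of each stage were sorted and run as 1 library of 10x Genomics version 2 chemistry. The submitters' processing notes name Cell Ranger 3.1.0 and mm10, and the deposited values are raw UMI counts per gene and cell. The members and gene lists were chosen with earlier results of these data known.

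The cell filter asked for 1000 genes or more and a mitochondrial share of 10% or less. Of 7581, 2956, 4055 and 8070 deposited cells (E8.0 to E10.5), 4, 2, 3 and 28 failed. The cells with the highest Scrublet doublet scores (scanpy 1.11.5), 0.8% per 1000 cells, were then removed, namely 459, 70, 131 and 517, since the tool's own calls covered 0.0247% to 1.58%. Library totals were 74920880 to 168407965 UMIs, with kept-cell medians of 15205 to 35216. Library pairs shared 16 to 88 cell barcodes. The rule genes separated the cells: at E9.5 Tnnt2 stood at 3021 CPM in cardiac and 24.1 in other cells.

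Other cells were grouped by markers: erythroid by more than 10% haemoglobin UMIs (0 cells of the cardiac rule), endothelial by 3 of Pecam1, Cdh5, Kdr, Esam, Tek and Egfl7 with 2 of them at 2 UMIs or more, endocardial as these with 2 or more Nfatc1 UMIs, epicardial by 2 of Wt1, Upk3b, Upk1b and Tbx18, and mesenchyme by 2 of Pdgfra, Twist1, Prrx1 and Prrx2.

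Cell groups were sums of raw counts, with exact Poisson, Clopper-Pearson or conditional binomial 95% intervals. Shares and correlations used cells thinned to 5000 UMIs. Cells are not replicates, so tests compared sums of 10 or more cells within libraries, with edgeR 4.0.16 (R 4.3.3; TMM scaling, quasi-likelihood, library as block, two-sided, Benjamini-Hochberg over all genes, threshold 0.05). Nothing beyond the library separates the sums, so p-values measure the spread between libraries, which also differ in stage. DESeq2 1.42.0, other scalings, filters, cell rules, gates and left-out libraries were alternatives. The script was tested on simulated data. Cells with all 8 rule genes, the raw-count split with at least 5 cells per side, sums without the highest cells and likeness over the late libraries were added after seeing the data. Named genes were the listed genes, genes within 100000 bases of the pair, the 10 most like each member, and the called genes with the largest change in each direction (10 for Nppa, 5 for Nppb) that went the same way in every library of the fit. Sequences are from RefSeq's GRCm38.p6 promoter table, where both members matched.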

Additional observations from a re-analysis of the deposited data

Results flagged for a closer look

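The log2 ratio of summed levels in ventricular to atrial marker cells changed sign between the late stages. For Nppa the log2 ratio was 1.35 at E9.5, then -0.96 at E10.5. For Nppb it was 1.40, then -0.39. The share of cells with 2 or more thinned Nppa UMIs stayed higher in the ventricular gate. It was 61.1% against 18.3% at E9.5 and 30.4% against 19.4% at E10.5, where the counting intervals overlapped. With 1 library per stage the difference between stages was not tested. The counting interval of the E10.5 Nppb ratio spans 0 (-1.08 to 0.26). Among cells with all 8 sarcomere genes, chosen after seeing the data, the E9.5 and E10.5 ratios were -0.22 and -1.37 for Nppa and -0.21 and -0.01 for Nppb. There a single atrial cell held 192 of the 768 atrial Nppa UMIs at E9.5, and the ratio without it was not computed. Over all cells of both gates, without the highest cell of each gate, the ratios were 1.61 and -0.71 for Nppa and 1.60 and -0.51 for Nppb.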

How the results depend on the processing

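The number of genes called with Nppa was 1434. It was 339 with DESeq2, 828 with no scaling beyond library size, 47 with no library block, 487 with thinned sums, 771 and 282 in cells with 6 and 8 rule genes, and 631 with the raw-count split, of which 339, 789, 47, 473, 764, 224 and 599 were among the 1434. Chamber genes called higher numbered 9, and 5, 2, 4 and 5 with DESeq2, no block, thinned sums and the raw-count split. Nppb passed in all 13 tests with Nppa (log2 difference 2.20 to 4.89). Leaving out a library left 1 and no test, with 3.08 to 3.91. Among cells with all 8 rule genes the difference turned for Acta2 (-0.16), Actn2 (-0.08), Myh7 (-0.15), Myl7 (-0.22), Nkx2-5 (-0.24), Nr2f2 (0.09) and Tbx18 (1.04), none of which passed there.

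The number of genes called with Nppb was 595. It was 261 with DESeq2, 955 with no scaling (331 higher in place of 365), 6 with no block and 93 with all 8 rule genes, of which 261, 550, 6 and 70 were among the 595. Its 5 chamber genes became 2 with DESeq2, 0 with no block (992 genes had an unadjusted p under 0.05) and 2 with all 8 rule genes. Nppa passed in all 6 tests with Nppb, and without a library the difference was 2.79 to 4.29.

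For ventricular against atrial cells the Nppa difference was -0.22 with 6 of 8 rule genes and -0.72 with all 8 (adjusted p = 4.44e-06 in edgeR's test). Leaving out each library gave -0.15 (without E9.5) to 1.70 (without E10.5, adjusted p = 1.35e-05). For Nppb it was 0.94 with every detected gene kept (adjusted p = 0.0244), 2.40 with thinned gates (adjusted p = 0.0262), -0.15 with all 8 rule genes and 0.25 (without E9.5) to 1.67 (without E10.5, adjusted p = 0.000335) with a library left out. The 33 genes called became 0 without E9.5 (235 with an unadjusted p under 0.05) and 361 without E10.5.

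For the canal gate Nppa was -2.13 with no block (adjusted p = 1.000), -4.09 with thinned gates (adjusted p = 2.48e-07) and -2.90 to -1.67 with a library left out. Nppb was -1.31 with every detected gene kept (adjusted p = 2.47e-14), -3.30 with thinned gates (adjusted p = 0.00108) and -1.52 (without E8.25, adjusted p = 0.0263) to -0.95 (without E10.5) with a library left out. The 51 genes called became 255 with every detected gene kept, 0 with no block (98 with an unadjusted p under 0.05), 14 and 5 with 6 and 8 rule genes and 4 with thinned gates.

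The log2 stage ratio of Nppa for E8.25 over E8.0 was 3.24 with 4 of 8 rule genes and 2.21 without the highest cells. For E10.5 over E9.5 it was -0.55 with all deposited cells, -0.86 as a mean of per-cell shares and -0.70 without the highest cells, and for Nppb -1.53 without them. Spearman's rho of Nppa with Nppb was 0.21 at E8.25 and 0.39 at E10.5.

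The causes of these changes were not tested. The Nppb split at 2 or more UMIs and a split at the median share were not run, since too few cells or a median of 0 left no 2 libraries to fit. No paired analysis was possible because each stage was 1 library, so replicate numbers pair nothing. The main limit is 1 library per stage and few cells with either gene.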

Other observations

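The cells with the most Nppb were not all those with the most Nppa. At E9.5 the highest Nppb cell had 92 Nppb and 35 Nppa UMIs among 8134 UMIs and lay in the ventricular gate. At E10.5 the highest Nppb cell had 76 Nppb and 2 Nppa UMIs beside 256 UMIs of Myl2, and met more than 1 gate. The highest Nppa cell of E9.5 (270 UMIs) lay in no gate, and that of E10.5 (307 UMIs) in the atrial gate.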
